A study of Homo sapiens with 6 samples.

Results

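The anti-apoptotic BCL2 family genes BCL2, BCL2L1, BCL2L2, MCL1 and BCL2A1 were followed through 6 libraries of polyA RNA. The 5 genes were taken by name from 23834 genes with a usable value, and all 5 were among the 12337 genes that reached 1 FPKM in at least 1 library. FPKM are fragments per kilobase of transcript, scaled to the mapped fragments of a library, so levels of different genes can be compared per length. Each library came from 1 culture with no replicate. The cultures were of DAUDI, which derives from a Burkitt lymphoma, and of DOHH2, which derives from a follicular lymphoma and carries a BCL2 translocation. Each line was sequenced as a culture labelled WT, as a culture rendered resistant to idelalisib, an inhibitor of the delta isoform of PI3K, and as one rendered resistant to ibrutinib, an inhibitor of the kinase BTK. The sources used here state neither drug doses nor times, nor whether a resistant culture was 1 clone. Where 3 values of a line are given, they stand in the order WT-labelled, idelalisib-resistant, ibrutinib-resistant.

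The proteins of these 5 genes hold cells alive at the outer mitochondrial membrane. They bind the BH3 segment of pro-apoptotic relatives and keep the effectors BAX and BAK1 from opening pores that release cytochrome c. BCL2 supports long-lived resting lymphocytes, is normally low in germinal centre B cells, and is placed under immunoglobulin enhancers by the t(14;18) translocation of follicular lymphoma. MCL1 turns over fast and is needed by germinal centre B cells, BCL2L1 encodes BCL-XL, BCL2L2 encodes BCL-W, and BCL2A1 is a target gene of NF-kB.

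The BCL2 gene gives an alpha form, which is joined to a further exon that encodes the membrane anchor, and a beta form, which runs on into the intron and lacks that anchor. Both forms share 585 coding bases (195 codons). They are shown because their shares differed between libraries. The lines below give the last 30 shared bases in lower case and the next 30 bases of each form in capitals, from the GENCODE release used with GRCh38, minus strand of chromosome 18, where the last shared base is 63318082.
BCL2 alpha: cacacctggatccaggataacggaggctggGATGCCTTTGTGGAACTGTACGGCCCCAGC
BCL2 beta: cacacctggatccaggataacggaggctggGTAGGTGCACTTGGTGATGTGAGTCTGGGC
The alpha form goes on at base 63128759 and has 239 codons. The beta form goes on at base 63318081 and has 205 codons.

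The libraries labelled WT stood apart from the resistant ones of their own line. Across the 12337 genes Pearson's r was 0.958 between them and 0.698 to 0.723 between either and a resistant library. Between the drugs r was 0.943 in DAUDI and 0.968 in DOHH2, and 0.815 to 0.835 between resistant libraries of different lines (across genes, which are not independent replicates). A difference from a WT-labelled library is therefore a difference between libraries as labelled, and a change within 1 line cannot be told apart from it. Whether the WT-labelled libraries belong to their labelled lines was not tested, and the line block of the fits rests on these labels. Below, rose and fell mean higher and lower in the resistant than in the WT-labelled libraries, and both drugs of a line share its WT-labelled library. Sequencing depth relative to the DAUDI WT-labelled library was 0.935 to 1.42. All 7 B cell markers passed 1 FPKM in each library, with sums of 919 to 1579 FPKM. Of 10 T and NK cell markers 1 or 2 passed (sums 1.49 to 7.64 FPKM), and CD3D was listed at 0 throughout. The sums of the myeloid and of the stromal and epithelial markers moved with the WT label, though not each marker did. The 8 myeloid markers summed to 0.222 and 0.916 FPKM in the WT-labelled libraries and to 24.5 to 29.3 FPKM in the resistant ones. LYZ (15.0 and 13.0 FPKM) led them in resistant DAUDI and CD33 (29.1 and 26.2 FPKM) in resistant DOHH2. CD33 was the only 1 of the 8 that reached 1 FPKM in resistant DOHH2. LYZ stood at 0.111 and 0.0459 FPKM there, against 0.199 FPKM in the DOHH2 WT-labelled library. The 8 stromal and epithelial markers summed to 27.6 and 28.3 FPKM in the WT-labelled libraries, nearly all CDH1, and to 0.347 to 7.32 FPKM in the resistant ones. The 5 erythroid markers summed to 0.82 to 6.25 FPKM. The part of these markers in the results was not tested.

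**Figure D1:**
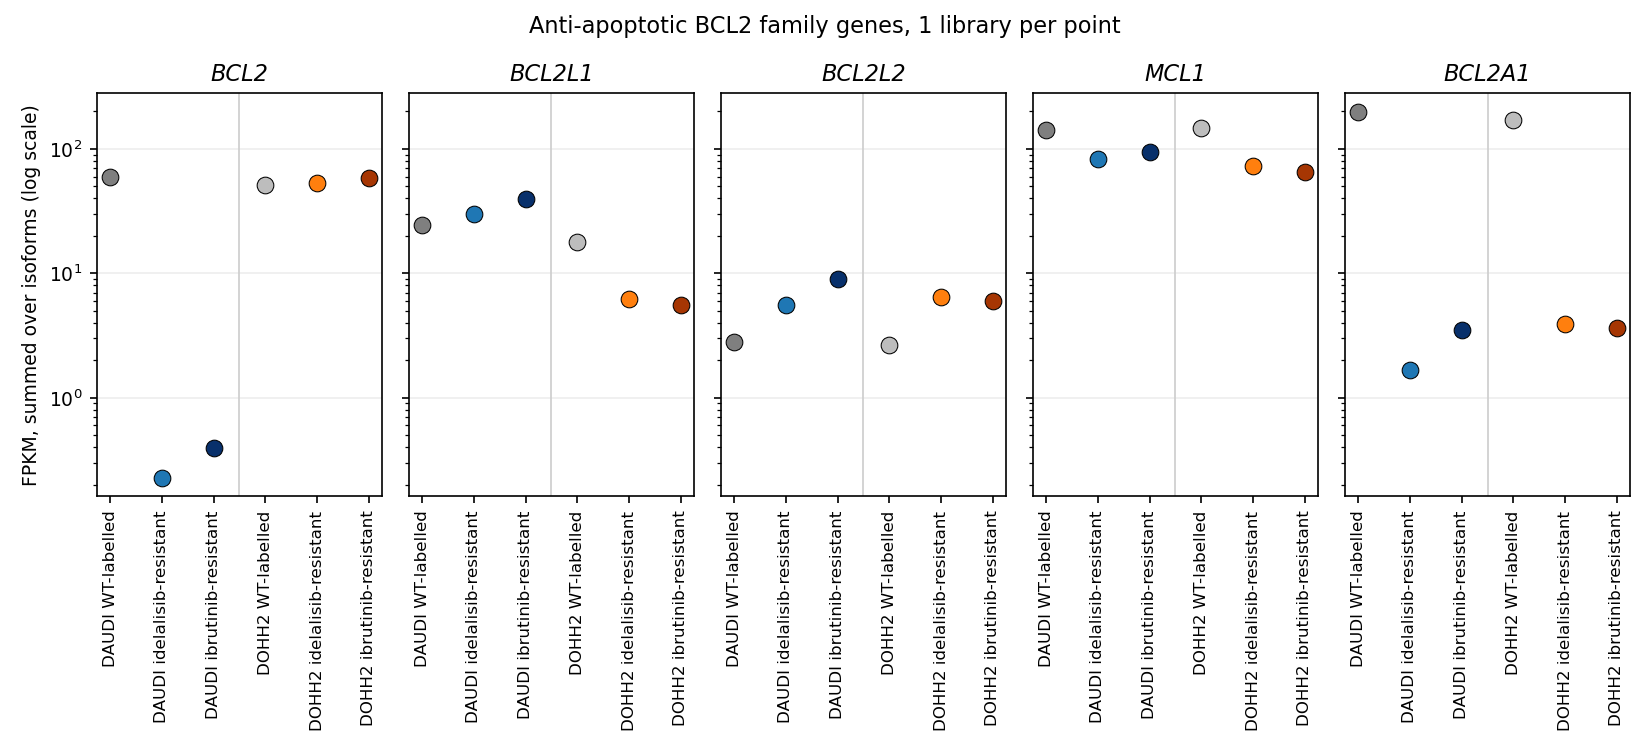
FPKM of each gene (log scale, summed over isoforms) in the 6 libraries, 1 point per library and no error bar since there are no replicates. BCL2 separates both resistant DAUDI libraries (0.228 and 0.395 FPKM) from the other 4, and BCL2A1 separates both WT-labelled libraries (199 and 170 FPKM) from the resistant ones.

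BCL2 lies at chr18:60790579-60986613 in hg19. In DAUDI it stood at 59.7 FPKM in the WT-labelled, 0.228 FPKM in the idelalisib-resistant and 0.395 FPKM in the ibrutinib-resistant library. In DOHH2 it stood at 51.6, 53.5 and 58.2 FPKM in the same order. The 2 resistant DAUDI libraries were thus low and the other 4, the DAUDI WT-labelled one included, were high with no overlap. Among tested genes BCL2 ranked at percentiles 92.6 to 93.9 in the high libraries and at percentiles 9.01 and 9.88 in the low ones. In the order of the libraries the only step of 1 or more on the scale log2(FPKM + 1) lay between the DOHH2 WT-labelled and the DAUDI ibrutinib-resistant library (5.24).

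Between the resistant libraries of both lines, BCL2 was higher in DOHH2 by 5.44 ± 0.14 (SE) on the log2(FPKM + 1) scale, with an adjusted p of 0.00159 in limma. The log2(FPKM + 1) scale understates ratios of weakly expressed genes. limma was fitted to the 12337 tested genes, and shares and medians of all genes refer to these. In this fit the 2 drugs stand in as replicates of a line, since each has 1 library, and 27.3% of all genes passed at an adjusted p under 0.05 (13.1% higher and 14.2% lower in DOHH2). BCL2 was higher with both drugs, by 5.47 with idelalisib resistance and 5.41 with ibrutinib resistance, and 0.421% and 0.527% of genes lay as far or farther from 0. Of the 5 genes 1 passed as higher in DOHH2 (BCL2) and 1 as lower (BCL2L1), with a median of -0.18 beside -0.04 over all genes. In bulk RNA, fewer cells that express a gene and less RNA per cell cannot be told apart.

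Against the WT-labelled libraries the 2 lines went different ways for BCL2. Its difference was -5.63 and -5.44 in DAUDI with idelalisib and ibrutinib resistance, and 0.05 and 0.17 in DOHH2. Such a difference, called a resistance effect here, is between libraries as labelled, and a change within 1 line cannot be told apart from it. The resistance effect in DOHH2 exceeded that in DAUDI by 5.64 ± 0.20 (SE, adjusted p = 0.00688, limma with 4 groups of line by WT or resistant, a fit chosen after the data were seen), where each WT arm is 1 library and the SE comes from the spread between the drugs within a line. In this contrast 9.6% of genes passed (4.58% with a higher and 5.02% with a lower effect in DOHH2). That call was lost without the DOHH2 idelalisib-resistant library (adjusted p = 0.0786) or without the DOHH2 ibrutinib-resistant one (0.0802). Pooled over both lines, BCL2 did not pass between resistant and WT-labelled libraries (-2.71 ± 1.42 SE, adjusted p = 0.222). The pooled value turned on which WT-labelled library was kept: it was -5.54 (adjusted p = 0.00439) without that of DOHH2 and 0.11 (adjusted p = 0.678) without that of DAUDI, both with limma.

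The forms of BCL2 shown above were not held in the same ratio. The deposited tables give bounds for each isoform, whose confidence level the sources used here do not state. In DOHH2 the alpha form NM_000633 stood at 42.5 FPKM (bounds 41.4 to 44.1) in the WT-labelled, 39.2 FPKM (38.1 to 40.7) in the idelalisib-resistant and 42.1 FPKM (40.9 to 43.7) in the ibrutinib-resistant library. The beta form NM_000657 stood at 9.14 FPKM (7.78 to 10.5), 14.3 FPKM (12.6 to 16.1) and 16.1 FPKM (14.2 to 17.997) there. The alpha bounds of the WT-labelled and ibrutinib-resistant DOHH2 libraries overlapped, and those of the idelalisib-resistant library lay just below both. The beta bounds of both resistant libraries lay above those of the WT-labelled one.

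In the DAUDI WT-labelled library the alpha form stood at 57.1 FPKM (56.2 to 59.1) and the beta form at 2.61 FPKM (1.91 to 3.31). The beta form thus made up 4.37% of BCL2 FPKM there, 17.7% in the DOHH2 WT-labelled library and 26.8% and 27.7% in the idelalisib- and ibrutinib-resistant DOHH2 libraries. This share set apart the WT-labelled libraries, which otherwise held similar BCL2 levels. In resistant DAUDI the alpha form stood at 0.228 FPKM (0.165 to 0.291) and 0.395 FPKM (0.324 to 0.466). The beta form was listed at 0 (upper bound 0.0437 FPKM) in the idelalisib-resistant library and near 0 (upper bound 0.0401 FPKM) in the ibrutinib-resistant one. The bounds cover the estimate within 1 library and not the spread between cultures, and the tool divides reads that both forms share.

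**Figure D2:**
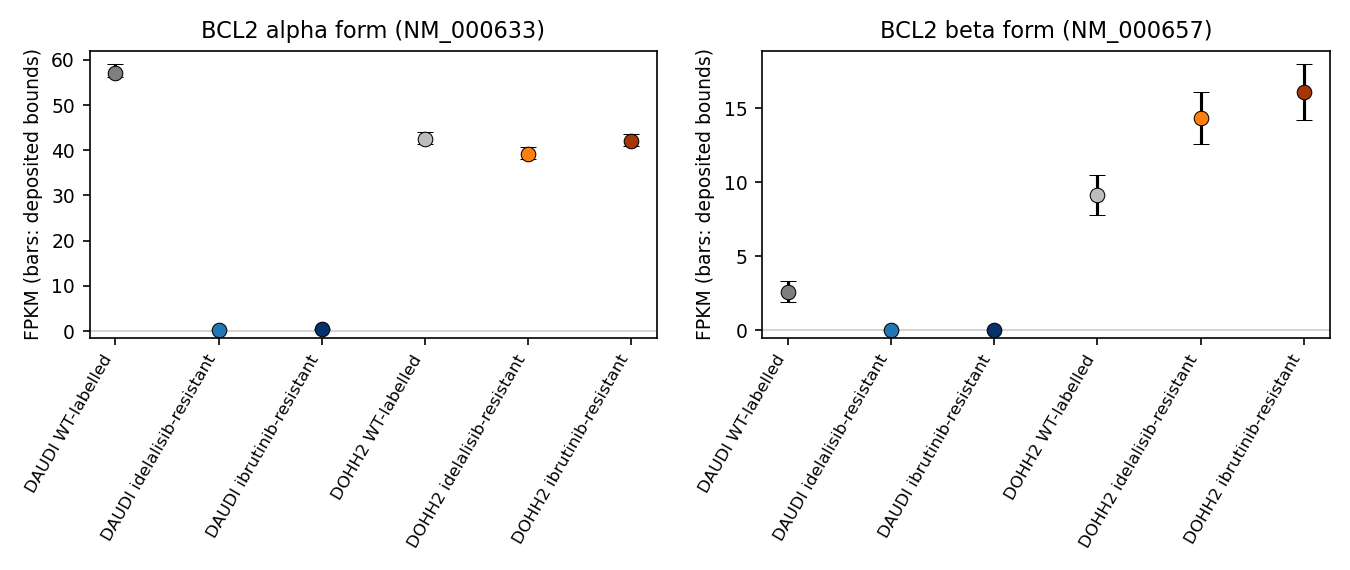
FPKM of the alpha form (left) and beta form (right) of BCL2 in each library, with the deposited lower and upper bounds as bars. The beta form is at or near 0 in resistant DAUDI and reaches 16.1 FPKM in the DOHH2 ibrutinib-resistant library, while the alpha form is highest in the DAUDI WT-labelled library (57.1 FPKM).

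Genes around BCL2 did not show its gap between resistant DAUDI and DOHH2. Of 21 other genes within 1 Mb in the files' coordinates, 7 were tested. KDSR, a sphingolipid enzyme gene that lies 8.36 kb from BCL2, stood at 6.48, 6.05 and 7.69 FPKM in DAUDI, against 4.87, 5.37 and 5.83 FPKM in DOHH2. VPS4B, an ESCRT gene, stood at 29.7, 13.7 and 19.3 FPKM in DAUDI, against 25.5, 17.8 and 17.4 FPKM in DOHH2. On the other side of BCL2, PHLPP1, a phosphatase gene that acts on AKT, stood at 1.34, 4.30 and 8.05 FPKM in DAUDI, against 1.27, 5.18 and 5.74 FPKM in DOHH2. PHLPP1 was thus low in both WT-labelled libraries. Over the 6 libraries ZCCHC2 ranged from 5.36 to 7.90 FPKM, PIGN from 6.76 to 10.4 FPKM and KIAA1468 from 4.19 to 9.81 FPKM. SERPINB8 stood at 3.03 and 3.19 FPKM in the WT-labelled libraries and at no more than 0.0572 FPKM in the resistant ones. Between resistant DOHH2 and DAUDI libraries of the same drug, the 7 genes differed by -0.43 to 0.35 on the log2(FPKM + 1) scale, against 5.47 and 5.41 for BCL2.

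**Figure D3:**
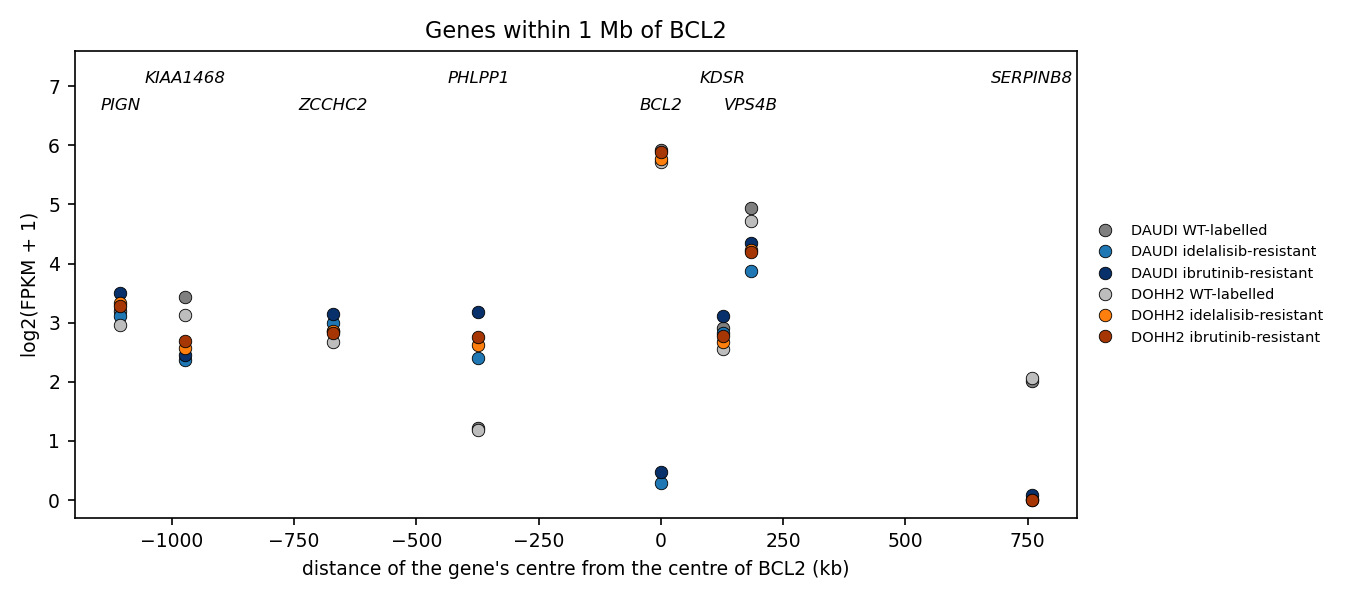
Level of BCL2 and of the 7 tested genes within 1 Mb, as log2(FPKM + 1), against the distance of each gene's centre from the centre of BCL2 in kilobases, 1 point per library. At BCL2 the 2 resistant DAUDI libraries lie far below the other 4, and at PHLPP1 and SERPINB8 the 2 WT-labelled libraries lie apart.

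BCL2L1, which encodes BCL-XL, lies at chr20:30252261-30310656 in hg19. It stood at 24.6, 29.8 and 39.7 FPKM in DAUDI, against 17.98, 6.20 and 5.55 FPKM in DOHH2. The resistant DOHH2 libraries were lowest and the resistant DAUDI libraries highest, and the 2 lines did not overlap. Between resistant libraries BCL2L1 was lower in DOHH2 (-2.37 ± 0.18 SE, adjusted p = 0.00655, limma, lower with both drugs). That call was lost without either resistant DOHH2 library (adjusted p = 0.0672 without the idelalisib-resistant and 0.0723 without the ibrutinib-resistant one).

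Against the WT-labelled library, BCL2L1 differed by 0.27 and 0.67 in DAUDI with idelalisib and ibrutinib resistance and by -1.40 and -1.54 in DOHH2. The difference between these effects was -1.94 ± 0.32 (SE) with an adjusted p of 0.058 in limma, short of the threshold. It passed after scaling by the median of ratios (adjusted p = 0.0272) or by the upper quartile (0.0256). The long isoform NM_138578, which encodes BCL-XL, made up 94.9% to 100% of BCL2L1 FPKM in each library. The short isoform NM_001191, which encodes the pro-apoptotic BCL-XS, stood at no more than 0.483 FPKM.

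MCL1 lies at chr1:150547027-150552214 in hg19 and held the highest level of the 5 genes in each resistant library. It stood at 141, 83.4 and 94.95 FPKM in DAUDI, against 147, 73.4 and 65.6 FPKM in DOHH2. Both WT-labelled libraries were above all 4 resistant ones, and next in order came resistant DAUDI and then resistant DOHH2, with no step as large as 1 on the log2(FPKM + 1) scale. Pooled over both lines as labelled, MCL1 was lower in the resistant than in the WT-labelled libraries (-0.86 ± 0.17 SE, adjusted p = 0.0355, limma), in 4 of 4 libraries. In this comparison 27.3% of all genes passed, 14.2% as higher and 13.1% as lower. The call for MCL1 held without the DAUDI WT-labelled library (adjusted p = 0.0487) and was lost on leaving out any other library (0.0848 to 0.173). Between resistant DOHH2 and DAUDI it differed by -0.35 ± 0.12 (SE) and did not pass (adjusted p = 0.108).

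The isoforms of MCL1 were closer to a fixed ratio. The full-length isoform NM_021960 stood at 86.1, 51.1 and 57.3 FPKM in DAUDI, against 94.2, 47.1 and 41.1 FPKM in DOHH2, which made up 60.4% to 64.2% of MCL1. NM_001197320, with a shorter coding part, stood at 52.9, 32.3 and 37.0 FPKM in DAUDI, against 50.8, 23.2 and 22.0 FPKM in DOHH2, or 31.7% to 38.9%. Whether its product protects cells was not tested, and the MCL1 level above counts it in full. The isoform NM_182763, which encodes the pro-apoptotic short form, stood at 1.64, near 0 and 0.659 FPKM in DAUDI, against 1.70, 3.10 and 2.53 FPKM in DOHH2. Its share was 4.22% and 3.86% in the resistant DOHH2 libraries and at most 1.16% in the other 4. Its bounds in the resistant DOHH2 libraries (2.63 to 3.56 and 2.10 to 2.97 FPKM) lay above those of the DOHH2 WT-labelled library (1.36 to 2.04 FPKM).

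BCL2A1, at chr15:80253232-80263643 in hg19, showed the largest gap of the 5 genes between WT-labelled and resistant libraries. It stood at 199, 1.68 and 3.51 FPKM in DAUDI, against 170, 3.88 and 3.63 FPKM in DOHH2. It was the highest of the 5 genes in both WT-labelled libraries and 4th or 5th in each resistant one. BCL2A1 was lower in the resistant than in the WT-labelled libraries, pooled over both lines as labelled (-5.51 ± 0.28 SE, adjusted p = 0.00302, limma), in 4 of 4 libraries. Within a line the difference was -6.22 and -5.47 in DAUDI and -5.13 and -5.21 in DOHH2, and 0.373% to 1.21% of genes lay as far from 0. Between resistant DOHH2 and DAUDI it did not pass (0.45 ± 0.30 SE, adjusted p = 0.335). The pooled call was lost without the DOHH2 idelalisib-resistant library (-5.75, adjusted p = 0.0502). The isoform NM_004049 made up 88.0% to 100% of BCL2A1.

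The promoter of BCL2A1 is shown because its gene had this gap. The sequence holds the 250 bases before the start, from RefSeq, GRCh38.p14, chr15:79971197-79971446, minus strand. Capitals mark every match on both strands to TATAAA and to GAGGAA, the core bound by the ETS family factor PU.1.
BCL2A1 promoter: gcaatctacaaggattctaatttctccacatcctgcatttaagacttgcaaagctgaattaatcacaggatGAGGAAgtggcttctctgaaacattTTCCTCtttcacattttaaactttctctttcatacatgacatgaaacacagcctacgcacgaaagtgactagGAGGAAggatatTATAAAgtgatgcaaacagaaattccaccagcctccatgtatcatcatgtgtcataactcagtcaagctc
There were 3 matches to GAGGAA and 1 to TATAAA, which do not overlap. Of 35116 promoters in the table, 23.6% held at least 1 match to GAGGAA and 10.7% at least 1 to TATAAA in the same window. The share with 3 matches to GAGGAA was not determined. The AP-1 motif TGANTCA (in 6.57% of promoters) and the NF-kB consensus (9.96%) had no match in these 250 bases. Of the 5 genes, 3 had a promoter in the table. In BCL2 none of the 4 motifs matched, and of the 2 BCL2L1 promoters 1 held TATAAA, with 2 matches.

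A list of 8 genes for NF-kB subunits and inhibitors was tested, since BCL2A1 is a target of NF-kB. In the resistant libraries 3 fell, 0 rose and 5 did not pass (median -0.55, beside 0.12 over all genes), where 13.1% of all genes passed as lower and 14.2% as higher. The inhibitor gene TNFAIP3 stood at 34.0, 3.96 and 6.39 FPKM in DAUDI, against 29.7, 0.37 and 0.771 FPKM in DOHH2. Its difference was -3.42 ± 0.47 (SE, adjusted p = 0.0162, limma). NFKBIE (-1.68, adjusted p = 0.00713) and the subunit gene NFKB2 (-1.38, adjusted p = 0.0235) also fell in limma, whereas RELA stood at 19.9 to 27.0 FPKM in the 6 libraries. The inhibitor gene NFKBIA differed by -0.85 and did not pass (adjusted p = 0.0628, limma).

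BCL2L2, which encodes BCL-W, lies at chr14:23775971-23780968 in hg19 and was a minor member. It stood at 2.79, 5.58 and 9.04 FPKM in DAUDI, against 2.65, 6.41 and 5.99 FPKM in DOHH2. Both WT-labelled libraries were below the 4 resistant ones. BCL2L2 was higher in the resistant than in the WT-labelled libraries, pooled over both lines as labelled (1.04 ± 0.22 SE, adjusted p = 0.0393, limma), in 4 of 4 libraries. That call was lost on leaving out any 1 of the 6 libraries (adjusted p 0.0911 to 0.176). The values are uncertain, since the read-through gene BCL2L2-PABPN1 shares its exons. That gene stood at 21.5, 37.1 and 37.0 FPKM in DAUDI, against 18.4, 24.3 and 24.4 FPKM in DOHH2, above BCL2L2 in each library, and did not pass in the same comparison (0.57 ± 0.16 SE, adjusted p = 0.0676, limma).

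Over the resistance contrast, then, 1 of the 5 genes rose (BCL2L2), 2 fell (MCL1 and BCL2A1) and 2 did not pass (BCL2 and BCL2L1). These calls depended on single libraries. That of BCL2L2 was lost on leaving out any library, and that of MCL1 on leaving out any but the DAUDI WT-labelled one. That of BCL2A1 was lost without the DOHH2 idelalisib-resistant library. Of all genes 27.3% passed there, 14.2% as higher and 13.1% as lower. The median of the 5 genes was -0.86, beside 0.12 over all genes. After scaling each library by the median of ratios the latter median became -0.02, and MCL1 stood at -1.03, BCL2A1 at -5.65 and BCL2L2 at 0.91, all past the threshold in limma. Between 2 libraries a gene was called when it differed by at least 1 on the log2(FPKM + 1) scale. This is no test, and both drugs of a line share 1 WT-labelled library. Of the 5 genes 2 were called for idelalisib resistance in DAUDI (BCL2 and BCL2A1, both lower), where 31.1% of all genes were. For ibrutinib resistance there 3 were called, the same 2 and BCL2L2 (1.40), beside 34.9% of all genes. In DOHH2 BCL2L1 and BCL2A1 were called lower with both drugs, joined by BCL2L2 (1.02) with idelalisib and by MCL1 (-1.15) with ibrutinib resistance. These were 3 of 5 each time, beside 31.8% and 30.6% of all genes. The BCL2L2 call in DOHH2 was lost with a pseudocount of 5 (0.58), either rescaling (0.88 and 0.98) or the leading isoform alone (0.69), and that in DAUDI with a pseudocount of 5 (0.85). With either rescaling MCL1 was called in DOHH2 with idelalisib resistance too (-1.17 and -1.05).

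The summed FPKM of the 5 genes was 427 in the DAUDI and 389 in the DOHH2 WT-labelled library. It was 121 and 148 in resistant DAUDI and 143 and 139 in resistant DOHH2 (idelalisib, ibrutinib). MCL1 was the largest part in each resistant library, and the resistant lines differed in the parts of BCL2 and BCL2L1. In resistant DAUDI, MCL1 made up 69.1% and 64.3% of the sum, BCL2L1 24.7% and 26.9%, and BCL2 0.189% and 0.267%. In resistant DOHH2, MCL1 made up 51.2% and 47.2%, BCL2 37.3% and 41.9%, and BCL2L1 4.33% and 3.99%. In the WT-labelled libraries BCL2A1 led with 46.6% and 43.7%, followed by MCL1 with 33.0% and 37.7% and BCL2 with 14.0% and 13.3%. These shares describe mRNA and not protein, and they sum all isoforms of a gene, whether or not an isoform encodes a protective form.

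**Figure D4:**
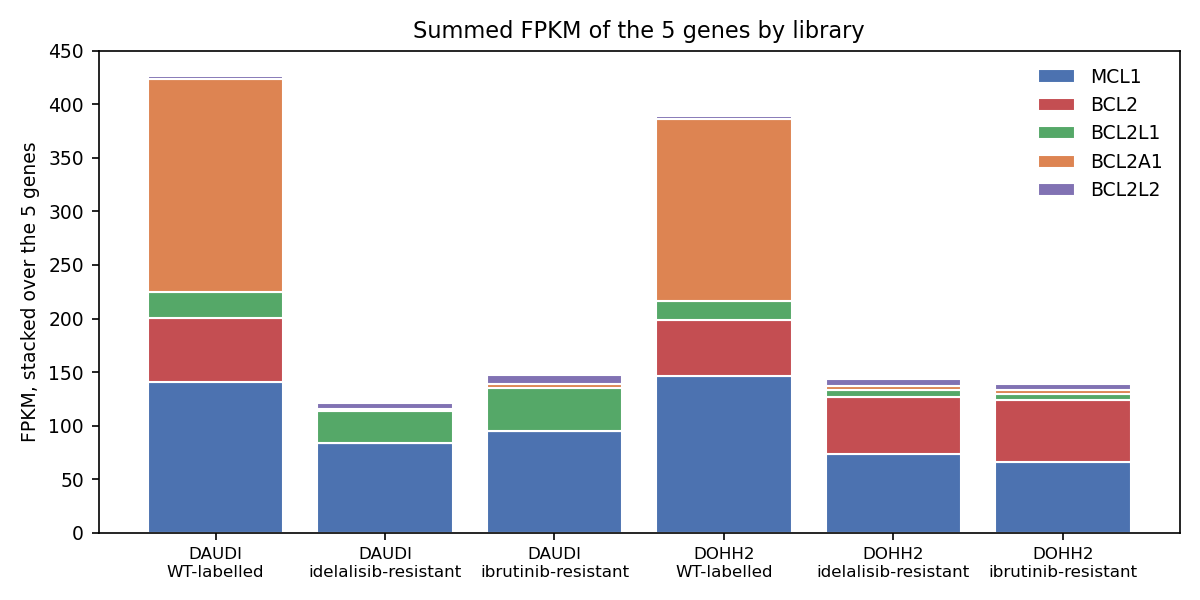
FPKM of the 5 genes stacked for each library, 1 library per bar. The WT-labelled bars reach 427 and 389 FPKM and are led by BCL2A1, while the resistant bars reach 121 to 148 FPKM and differ between the lines in BCL2 and BCL2L1.

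Between ibrutinib- and idelalisib-resistant libraries none of the 5 genes was called in either line, beside 3.5% of all genes in DAUDI and 1.08% in DOHH2. The largest difference was that of BCL2A1 in DAUDI (0.75), followed by BCL2L2 (0.61) and BCL2L1 (0.40) in the same line. In DOHH2 the 5 genes differed by -0.16 to 0.12. Over both lines none passed in limma (adjusted p of 1 each), where 0.00811% of genes did. None of the 5 reached an unadjusted p under 0.05. The gene that passed was SNORD83B, named after its values were seen and listed at 0 in both ibrutinib-resistant libraries. At an unadjusted p under 0.05 there were 71 genes in all.

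A p that misses the threshold does not show that the 5 genes were alike, and intervals bound the difference. The 95% intervals of ibrutinib minus idelalisib resistance were -0.55 to 0.57 for MCL1, -0.44 to 0.97 for BCL2L2, -0.57 to 1.24 for BCL2A1, -1.52 to 1.78 for BCL2L1 and -4.39 to 4.70 for BCL2, all with limma on 6 libraries. With limma on the 4 resistant libraries alone, the interval was -0.40 to 0.70 for BCL2 and -0.55 to 0.81 for BCL2L1. The WT-labelled libraries, too, differed in none of the 5 genes by 1 or more (-0.43 for BCL2L1 to 0.06 for MCL1), beside 1.09% of all genes. Between lines with the same resistance, 2 of the 5 genes were called for idelalisib and 2 for ibrutinib, BCL2 and BCL2L1 in both cases, beside 18.7% and 22% of all genes.

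The BH3-only genes encode the pro-apoptotic partners that these proteins bind. Of 8 BH3-only genes tested, 1 rose in the resistant libraries, 2 fell and 5 did not pass (median -0.27, beside 0.12 over all genes), where 27.3% of all genes passed (14.2% as higher and 13.1% as lower). BCL2L11, which encodes BIM, stood at 139, 10.5 and 7.95 FPKM in DAUDI, against 139, 19.6 and 21.5 FPKM in DOHH2. BCL2L11 fell by 3.24 (SE 0.32, adjusted p = 0.00913, limma). BID, cleaved by caspase-8 in death receptor signalling, fell by 2.20 (SE 0.30, adjusted p = 0.0156, limma). HRK rose (1.88 ± 0.37 SE, adjusted p = 0.0334, limma), from 2.36 and 2.86 FPKM in the WT-labelled libraries to 6.84 to 19.1 FPKM.

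Between the resistant lines 3 of the 8 were higher in DOHH2, 3 were lower and 2 did not pass (median -0.32, beside -0.04 over all genes), where 27.3% of all genes passed (13.1% as higher and 14.2% as lower). BMF stood at 6.35 and 8.57 FPKM in resistant DAUDI and at 37.4 and 31.7 FPKM in resistant DOHH2 (2.08 ± 0.19 SE, adjusted p = 0.00897, limma). BCL2L11 (1.09) and BID (0.81) were also higher in DOHH2. BBC3, which encodes PUMA (-1.32, adjusted p = 0.0359), and PMAIP1, which encodes NOXA and binds MCL1 (-0.82, adjusted p = 0.0437), were lower in limma. BIK stood at 13.2 and 10.2 FPKM in resistant DAUDI and was listed at 0 in both resistant DOHH2 libraries, so no ratio is given. BIK stood at 0.658 and 3.76 FPKM in the DAUDI and DOHH2 WT-labelled libraries.

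Of the effectors, BAX was at 63.1, 61.9 and 86.2 FPKM in DAUDI, against 61.2, 50.1 and 38.6 FPKM in DOHH2, and BAK1 was at 12.7, 10.8 and 11.2 FPKM in DAUDI, against 12.1, 5.97 and 4.23 FPKM in DOHH2. BAK1 was lower in resistant DOHH2 than in resistant DAUDI (-0.99 ± 0.19 SE, adjusted p = 0.0403, limma), and BAX did not pass (-0.72 ± 0.24 SE, adjusted p = 0.109). Neither passed between resistant and WT-labelled libraries (median of both -0.39, beside 0.12 over all genes). BOK was listed at 0 throughout. Of 6 other family genes 3 were tested, and BCL2L12 fell (-0.80 ± 0.16 SE, adjusted p = 0.0328, limma).

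**Figure D5:**
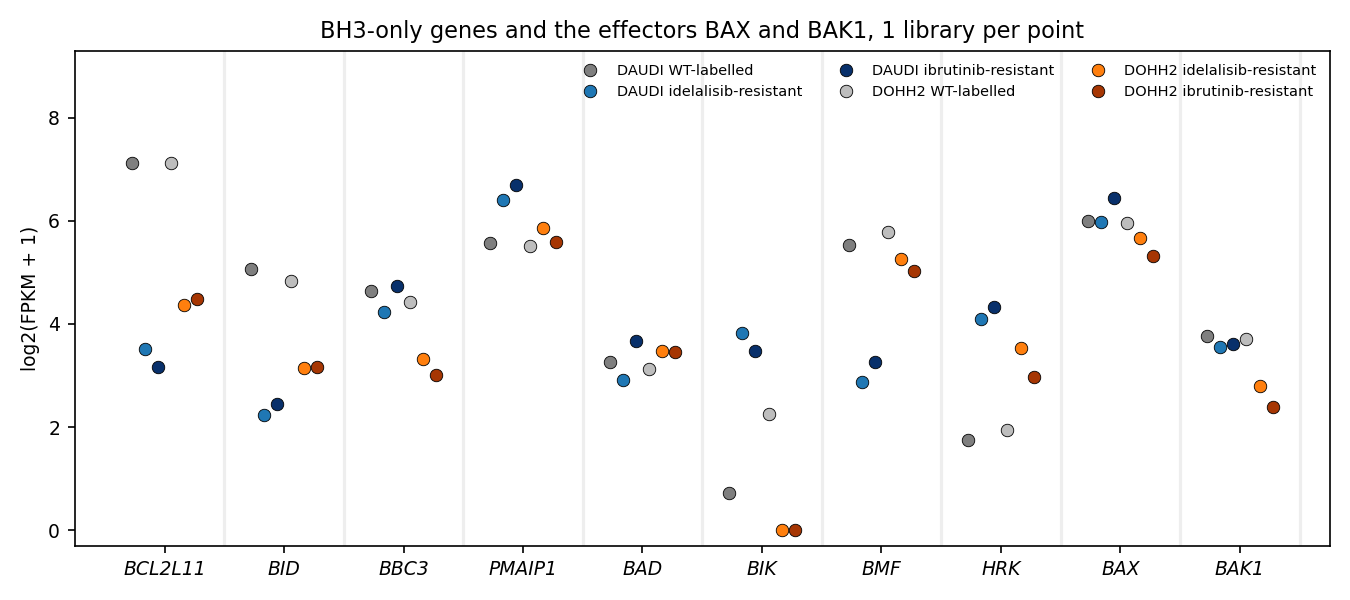
Levels of the 8 BH3-only genes and of BAX and BAK1 as log2(FPKM + 1), 1 point per library. BCL2L11 and BID are highest in both WT-labelled libraries, BMF is lowest in both resistant DAUDI libraries, and BIK is at 0 in both resistant DOHH2 libraries.

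A further list grouped genes under the turnover of the MCL1 and BCL2 proteins, and the part of each gene in it was not tested. Of 10 tested, none passed between resistant and WT-labelled libraries in limma, where 27.3% of all genes did. The median of the 10 was -0.13, beside 0.12 over all genes, and 2 had an unadjusted p under 0.05. At an absolute difference of 1, 0 were called in either DAUDI comparison, beside 31.1% (idelalisib) and 34.9% (ibrutinib) of all genes. In the DOHH2 comparisons 1 and 2 were called, beside 31.8% and 30.6% of all genes. Between resistant DOHH2 and DAUDI 3 of 10 were lower and 0 higher (median -0.29, beside -0.04 over all genes), a share near the 27.3% of all genes that passed in either direction (14.2% as lower). The phosphatase gene DUSP22 differed most, at 38.8 and 51.9 FPKM in resistant DAUDI and 16.1 and 11.8 FPKM in resistant DOHH2 (-1.63 ± 0.23 SE, adjusted p = 0.0224, limma). FBXO10, whose product directs BCL2 to degradation, was also lower in DOHH2 (-0.71, adjusted p = 0.0336), as was the ubiquitin ligase gene BTRC (-0.61, adjusted p = 0.0421), both in limma.

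The genes closest in pattern to each member were found by the root mean square difference of log2(FPKM + 1) over the 6 libraries, each gene centred on its mean, among 9410 genes that reached 5 FPKM in any library. For BCL2 they were S100A10 (0.20), GSTP1 (0.22) and SLC38A2 (0.24). For BCL2L1 they were COL9A2 (0.076), ERAP1 (0.14) and SPECC1 (0.16), and for BCL2L2 SPATS2 (0.044), JARID2 (0.047) and RPS6KA5 (0.058). For MCL1 they were PPP1R12C (0.038), CTDP1 (0.047) and PPP1R37 (0.05), and for BCL2A1 GPX7 (0.27), PARVB (0.27) and BNIP3 (0.30), a distant relative with a BH3 segment. SLC38A2, an amino acid transporter gene, stood at 31.7, 0.0284 and 0.0623 FPKM in DAUDI, against 35.7, 37.5 and 30.6 FPKM in DOHH2, with the same 2 low libraries as BCL2. The libraries fall into clusters and share these contrasts, so likeness over 6 libraries is a description.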

How the data were processed

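Sequencing covered 1 polyA RNA library from each of 6 cultures, made with a directional kit per the labels' protocols. Per the submitters' processing notes, bcl2fastq, cutadapt, TopHat2 and Cufflinks were used with hg19, whose versions the sources used here do not state. The authors deposited FPKM per isoform with lower and upper bounds, and a coverage signal not scaled to library size, per the file headers. Counts were not used here, so absolute depth is unknown.

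A gene's level was the sum of its isoforms' FPKM. Left out were 528 isoforms without a gene name and 10 genes with a failed estimate. Start coordinates were raised by 1, since the files count from 0. Of all isoform values, 1670 to 2343 per library lie outside their own bounds, but all 66 values of the 11 isoforms of the 5 genes lie inside.

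limma 3.58.1 (R 4.3.3) was run on log2(FPKM + 1), with trend, two-sided, on genes at 1 FPKM or more in at least 1 library, with Benjamini-Hochberg adjustment over all 12337. Resistant minus WT and ibrutinib minus idelalisib used 6 libraries with the line as a block (2 residual degrees of freedom). DOHH2 minus DAUDI used the 4 resistant libraries (2 residual degrees of freedom), and the difference of effects used 4 groups. p-values measure the spread between these libraries only. The fits were checked on simulated data with 1 spread for all genes and planted differences far larger than those of MCL1 or BCL2L2. That check therefore does not cover calls of such small differences.

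The 5 genes, the lists and the fits were chosen with earlier results of these data known. Named were the 5 genes, some genes of each list, 3 genes most alike each member, and tested genes within 1 Mb of BCL2. The genes named from a list were not always those with the largest differences. Alternatives were pseudocounts of 0.1 and 5, filters of 0 and 5 FPKM, 2 scalings, no trend, other blocks, the leading isoform alone and leaving out each library. The result for a gene of the release and apoptosome list is not reported here.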

Additional observations from a re-analysis of the deposited data

Results flagged for a closer look

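For BCL2, resistant minus WT-labelled libraries was 5.64 higher in DOHH2 than in DAUDI on the log2(FPKM + 1) scale (SE 0.20, limma). The WT-labelled libraries were more like each other than like the resistant ones of their own line. This is therefore a difference between libraries as labelled, and a change within 1 line cannot be told apart from it. The DAUDI library labelled WT, at 59.7 FPKM, lay just above the DOHH2 libraries (51.6 to 58.2 FPKM), and the effect in DAUDI rests on that 1 library. Each WT arm of this contrast is 1 library, so the SE comes from the spread between the 2 drug libraries of each line. Without the idelalisib-resistant or the ibrutinib-resistant DOHH2 library the value was 5.70 or 5.59, and the call given above was lost. STAT5A, a transcription factor gene, also differed, by 2.58 (SE 0.22, adjusted p = 0.0201, limma). It stood at 2.14, 1.03 and 1.24 FPKM in DAUDI, against 2.36, 11.7 and 13.5 FPKM in DOHH2. Genes listed at 0 in all libraries of a group were not flagged, since no ratio can be given. BIK, listed at 0 in both resistant DOHH2 libraries, was left out for this reason, though it passed in the same contrast with a lower effect in DOHH2. No group has the 4 libraries needed to look for a library that stands far from its group.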

How the results depend on the processing

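No paired analysis was possible because each group has 1 library; the cell line was used as a block instead. The numbers of genes passing limma were 3364 for resistant minus WT-labelled, 1 for ibrutinib minus idelalisib, 3362 for resistant DOHH2 minus resistant DAUDI and 1184 for the difference of effects. Without a filter on low values they were 2040, 0 (323 at an unadjusted p under 0.05), 1977 and 1972. With the drug as a block 1914 passed between the resistant lines. For ibrutinib minus idelalisib 2 passed among genes at 5 FPKM or more and 0 with the 4 resistant libraries only (212 unadjusted). Leaving out 1 library gave 0 to 3418 genes for resistant minus WT-labelled (0 without the DOHH2 idelalisib-resistant library, with 3355 genes at an unadjusted p under 0.05), 0 for ibrutinib minus idelalisib in each case (41 to 248 unadjusted), 742 to 2985 between the resistant lines and 0 to 1461 for the difference of effects (0 without the DOHH2 ibrutinib-resistant library, with 2209 unadjusted). The last could not be fitted without a WT-labelled library. Such fits have 1 residual degree of freedom.

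BCL2 between the resistant lines passed under 8 of 8 other settings (3.52 to 7.12) and with each library left out (adjusted p up to 0.0204), and BCL2L1 under 8 of 8 (-2.53 to -1.86). For resistant minus WT-labelled, BCL2A1 passed under 8 of 8 settings and missed without the DOHH2 idelalisib-resistant library (adjusted p = 0.0502). BCL2L2 and MCL1 passed under 7 of 8 and missed with no filter (0.108 and 0.0982). BCL2L2 missed with each library left out (0.0911 to 0.176), and MCL1 missed with 5 of the 6 left out (up to 0.173). Pooled values of BCL2 and BCL2L1 depended on the WT-labelled library kept: BCL2 stood at -5.54 (adjusted p = 0.00439) without that of DOHH2 and at 0.11 (0.678) without that of DAUDI, and BCL2L1 at 0.47 (0.257) and -1.47 (0.0497). Of 45 counts of the 5 genes called between 2 libraries, 44 stayed within 1.5 times. With a pseudocount of 0.1, 1 gene was called between the drugs in DAUDI (BCL2A1, 1.02).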

Other observations

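Of 10 tested transcription factor genes whose products have been reported to act on the 5 genes, 5 were higher in the resistant libraries in limma, 1 was lower and 4 did not pass. Their median was 1.11, beside 0.12 over all genes, of which 14.2% passed as higher and 13.1% as lower. BCL6, the germinal centre repressor, stood at 7.76, 44.0 and 50.9 FPKM in DAUDI, against 9.07, 121 and 110 FPKM in DOHH2. BCL6 rose by 2.999 ± 0.30 (SE, adjusted p = 0.0096, limma) and was 1.27 higher in resistant DOHH2 than in resistant DAUDI (adjusted p = 0.00935). STAT3 stood at 132, 8.01 and 12.3 FPKM in DAUDI, against 110, 10.5 and 11.7 FPKM in DOHH2 (-3.40 ± 0.19 SE, adjusted p = 0.00334, limma). STAT5B (2.17, adjusted p = 0.0262) and SPI1, which encodes PU.1 (1.71, adjusted p = 0.00922), also rose in limma. EGR1 differed by more than either, in the other direction, and did not pass (-2.42 ± 0.86 SE, adjusted p = 0.112, limma).

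Other genes act below the mitochondrial pore, in the release of cytochrome c and in the apoptosome. Of 9 tested between the resistant lines, APAF1, the apoptosome scaffold gene, was higher in DOHH2 (0.90, adjusted p = 0.0492) and the pore gene VDAC1 lower (-0.57, adjusted p = 0.043), both in limma, and 7 did not pass (median -0.10, beside -0.04 over all genes). This count of 2 of 9 is near the background, where 27.3% of all genes passed.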
